A study of Mus musculus with 2 samples.

Results

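The Mir29 family of the embryonic mouse limb was described from its 4 genes, Mir29a, Mir29b-1, Mir29b-2 and Mir29c, out of 1973 microRNA genes counted. The genes were taken by their GENCODE symbols. Small RNAs with inserts below 30 nucleotides had been sequenced from 2 samples of limb tissue of the mouse strain B6NCrl, both untreated as far as the labels say, of mixed sex and at embryonic day 14.5. Each sample was 4 limbs, labelled as biological replicates 1 and 2 with different collection days, but both carried the same donor and pup labels. SDs therefore measure only the spread between these samples, which may be technical. P-values of the main tests set reads against counting noise, not against this spread. There was 1 group and therefore no contrast between conditions, and a microRNA made by few cells cannot be told apart from one made at a low level by many.

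MicroRNAs are cut from hairpin precursors as short single strands that pair with messenger RNAs and lower their output, and the seed, bases 2 to 8, does most of the target recognition. The miR-29 family is known as a repressor of extracellular matrix genes, among them fibrillar collagens, elastin and fibrillin, and of the DNA methyltransferases Dnmt3a and Dnmt3b. In fibrotic heart, lung and kidney its loss is known to go with collagen deposition. The limb at this age holds forming cartilage, tendon, dermis and bone, all tissues that lay down collagen. No messenger RNA or protein was measured here, so the family's action on the matrix was not examined.

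The 4 hairpins give 3 different mature strands from their 3′ arms, shown here from RefSeq (GRCm38.p6) because they decide which reads could be given to which gene. Capitals mark the seed:
miR-29a-3p: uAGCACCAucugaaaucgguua
miR-29b-3p: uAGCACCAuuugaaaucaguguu
miR-29c-3p: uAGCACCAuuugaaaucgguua
All 3 strands carried the seed AGCACCA, and in the RefSeq table the 4 Mir29 genes were the only ones with it. No entry in that table was found for 1057 of the 1973 counted genes, so their strands may not have been searched. With positions counted from 1 at the 5′ end, miR-29a-3p differed from miR-29c-3p by 1 substitution, C10U. From miR-29b-3p to miR-29c-3p there were 3 substitutions over the 22 bases compared, A18G, G21U and U22A. The last bases of miR-29b-3p, positions 18 to 23, read AGUGUU, a motif known to carry miR-29b into the nucleus, and neither of the other strands held it.

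The 5′ arms, the strands usually discarded, were not shared. They are shown for the Mir29b copies because they are where those copies can be told apart, though by few bases:
miR-29b-1-5p: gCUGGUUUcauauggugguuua
miR-29b-2-5p: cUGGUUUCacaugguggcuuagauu
The capitals again mark bases 2 to 8. The seeds of these arms differed. No other gene in the table shared the seed of miR-29b-1-5p, while that of miR-29b-2-5p was also found in Mir6338.

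The family lies in 2 tandem loci (mm10 coordinates). On chromosome 6 the minus strand holds Mir29a (ENSMUSG00000065610, 31062660 to 31062747) and Mir29b-1 (ENSMUSG00000065604, 31063023 to 31063093), separated by 275 bases. On chromosome 1 the plus strand holds Mir29b-2 (ENSMUSG00000065412, 195037040 to 195037120) and Mir29c (ENSMUSG00000065548, 195037547 to 195037634), separated by 426 bases. No other counted microRNA gene lay within 10 kb of either locus. In GENCODE M21, Mir29b-2 and Mir29c lay inside an exon of the noncoding gene A330023F24Rik on their strand, and inside an exon of the complement regulator gene Cd46 on the opposite strand. Mir29a overlapped no other annotated transcript, and Mir29b-1 overlapped the noncoding gene Gm27019 by 2 bases. The own-strand counts were used throughout, and none of the 4 genes had an opposite-strand read in either library.

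The hairpins of the Mir29b copies are shown with the mature 3′ strand in capitals, since their counts depend on it:
Mir29b-1: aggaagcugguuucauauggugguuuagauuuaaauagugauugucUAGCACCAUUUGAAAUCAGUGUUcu
Mir29b-2: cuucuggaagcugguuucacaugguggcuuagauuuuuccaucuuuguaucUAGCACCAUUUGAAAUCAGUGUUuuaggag
The mature strand sits whole inside a run of 25 bases that both hairpins hold, ucuagcaccauuugaaaucaguguu. A read that lies inside this run has an exact match at both loci. Reads with several alignments were tallied by the authors apart from the genes, so the counts of Mir29b-1 and Mir29b-2 come from reads that reach outside the run or from the 5′ arms, if alignment was exact. Mir29a had no window of 22 bases in common with another RefSeq hairpin, and Mir29c had 1 of 67 windows, shared with Mir29b-1. Hairpins of genes missing from the RefSeq table were not searched. With 1 mismatch allowed, 4 windows of Mir29a and 8 of Mir29c matched another family member. How many miR-29 reads were set aside was not tested.

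As background for the family's known targets, 3′ untranslated regions of GENCODE M21 were searched for the match of the 3′ seed, TGGTGCT, on the messenger strand. This is a property of the annotation, not of the samples. In the first 500 bases it occurred in 12 of 39 collagen genes (30.8%) and in 741 of all 14186 genes with a region that long (5.22%). In the first 1000 bases it occurred in 12 of 24 collagen genes and in 10.1% of all 10170 genes. The matches in 2 fibrillar collagens that are known miR-29 targets are shown, with the match in capitals:
Col1a1 at chr11:94952525-94952546: gggaaggaatttcTGGTGCTat
Col3a1 at chr1:45348969-45348990: caaaatgtctcaaTGGTGCTat
Both lie on the plus strand. Col1a2, which encodes the partner chain of type I collagen, had no such match in its 882 bases. A match is a description of letters and not a measured site.

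The libraries held 9001596 reads (replicate 1) and 8387546 reads (replicate 2). Own-strand gene counts summed to 4608816 and 4144385, and levels are given per 1000000 of these (CPM). Reads with several alignments made up 31.8% and 32.6% of all reads. Markers of the labelled tissue were present. The limb patterning microRNAs Mir196b, Mir10a and Mir10b summed to 64090 and 66895 CPM. The cartilage microRNAs Mir140 and Mir455 summed to 59560 and 63162 CPM. The 3 brain genes Mir124a-1, Mir124a-2 and Mir124a-3 were at 0, though they are copies of each other and may lose shared reads too. The liver microRNA Mir122 was not at 0, with 6.29 CPM in replicate 1 and 13.5 CPM in replicate 2. Detection, meaning 10 counts or more in each library, held for 333 genes, and 1286 genes had no own-strand read in either library.

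Mir29a was the highest member. It had 408 reads in replicate 1 and 384 in replicate 2, or 88.5 CPM (95% exact binomial interval 80.1 to 97.5) and 92.7 CPM (83.6 to 102). The mean was 90.6 ± 2.92 CPM (SD, n = 2). Both libraries agreed within counting error, and Mir29a held rank 199 of all genes by mean level. Intervals cover only the counting error of each library. No molecular identifiers were used.

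Mir29c followed with 243 and 228 reads, or 52.7 CPM (46.3 to 59.8) and 55.0 CPM (48.1 to 62.6). Its mean was 53.9 ± 1.62 CPM (SD, n = 2) at rank 221. In both libraries the interval of Mir29c lay wholly below that of Mir29a. The 2 genes thus had a fixed order in these libraries, as reads with a single alignment.

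Mir29b-1 and Mir29b-2 were near the limit of the data. Mir29b-1 had 7 reads in replicate 1 and 3 in replicate 2, which gave 1.52 CPM (0.611 to 3.13) and 0.724 CPM (0.149 to 2.12). Mir29b-2 had 3 reads and 1 read, which gave 0.651 CPM (0.134 to 1.90) and 0.241 CPM (0.00611 to 1.34). The level of 3 counts, the limit that a count of 0 allows, was 0.651 CPM in replicate 1 and 0.724 CPM in replicate 2, so only the value of Mir29b-1 in replicate 1 lay above it. The intervals of the Mir29b copies overlapped in both libraries, and their order was not resolved. Reads inside the run shared by both hairpins are missing from these counts if they were set aside, which was not tested. The counts therefore do not show that miR-29b was scarce.

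**Figure D1:**
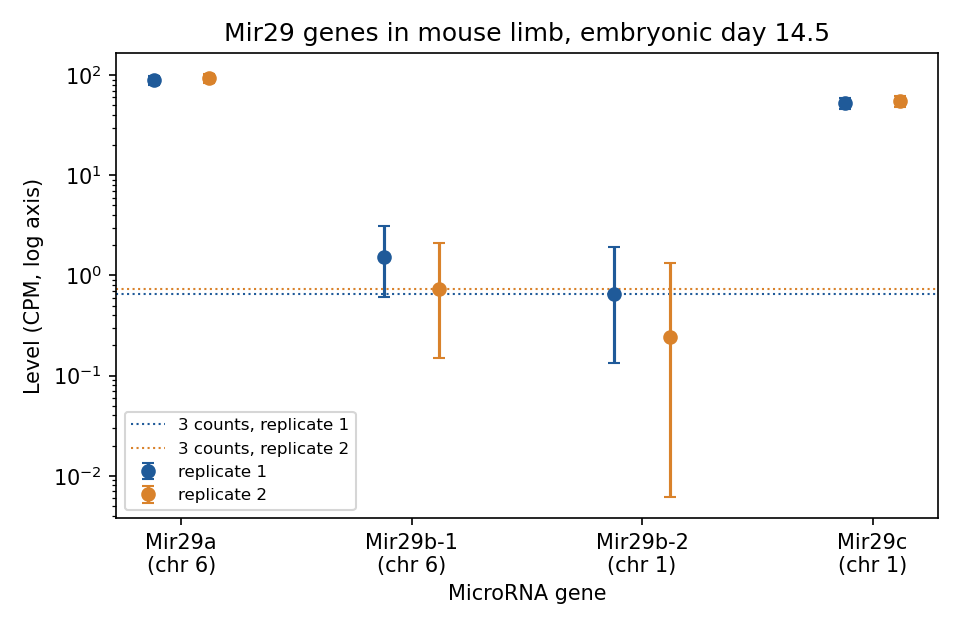
Levels of the 4 Mir29 genes in CPM on a log axis, by gene, with replicate 1 in blue and replicate 2 in orange. Bars are 95% exact binomial intervals and dotted lines mark 3 counts in each library. Mir29a (88.5 and 92.7 CPM) and Mir29c (52.7 and 55.0 CPM) stand well above the lines, while the intervals of both Mir29b genes cross them.

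The family summed to 143 CPM in replicate 1 and 149 CPM in replicate 2, or 146 ± 3.69 CPM (SD, n = 2). This was 0.0146% of the gene counts. Mir29a gave 61.7% of the family's reads in replicate 1 (57.9 to 65.4) and 62.3% in replicate 2 (58.4 to 66.2). Its share did not differ between the libraries by a two-sided Fisher's exact test (p = 0.863), which compares these libraries and not conditions. The 2 Mir29b genes together gave 1.51% and 0.649% of the family's reads, from 10 and 4 reads. All these shares are of reads with a single alignment, so any Mir29b reads set aside are missing from them.

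The loci were compared next. The chromosome 6 locus yielded 415 and 387 reads (90.0 and 93.4 CPM), and the chromosome 1 locus 246 and 229 reads (53.4 and 55.3 CPM). The ratio of the loci was 1.69 in both libraries, with intervals of 1.44 to 1.98 in replicate 1 and 1.43 to 2.00 in replicate 2. The ratio of Mir29a to Mir29c alone was 1.68 ± 0.00368 (SD, n = 2), and its interval from counting error was 1.43 to 1.98 in replicate 1 and 1.43 to 1.99 in replicate 2. The agreement of the libraries was thus closer than the counts themselves can resolve, and both intervals lay above 1. With 2 libraries no permutation test of the loci can pass 0.05. How evenly the strands yield reads was not measured, so the ratio is one of reads with a single alignment.

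Within each locus the 2 genes differed far more. Mir29a had 58.3 times the reads of Mir29b-1 in replicate 1 (interval 28.0 to 146) and 128 times in replicate 2 (43.5 to 623). Mir29c had 81 times the reads of Mir29b-2 in replicate 1 (27.4 to 396) and 228 times in replicate 2 (40.5 to 9045). The intervals of the libraries overlapped for both pairs. These ratios set a gene with a mature strand of its own against one whose mature strand is shared, so they do not compare amounts of the strands.

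By reads with a single alignment, the family lay below the middle of the detected genes. The 333 detected genes had a median level of 177 CPM, above each Mir29 gene and above the family's sum. That sum leaves out any Mir29b reads set aside for several alignments, so the place of the whole family was not measured. The genes ranked directly above Mir29a were Mir33, which lies in the sterol regulator gene Srebf2 (437 and 374 reads), and the neural microRNA Mir137 (427 and 380 reads). Directly below it were Mir192 (351 and 401 reads) and Mir138-2 (390 and 351 reads). Beside Mir29c stood Mir449a (255 and 245 reads) and Mir452 (238 and 254 reads) above, and Mir7-1 (225 and 243 reads) and Mir30c-1 (242 and 227 reads) below. Mir7-1 stood at 53.7 ± 6.94 CPM and Mir30c-1 at 53.6 ± 1.60 CPM (SD, n = 2). The 2 values of each of these genes overlapped those of the Mir29 gene beside it, except for Mir138-2 (84.6 and 84.7 CPM) and Mir449a (55.3 and 59.1 CPM). Both of these lay inside the counting intervals of their Mir29 neighbour. Mir29b-1 ranked 407 among genes with about 10 reads in total, between Mir7647 and Mir1964 (6 and 4 reads each) above and Gm24270 (1 and 8 reads) and Mir7069 (2 and 7 reads) below. Mir29b-2 shared its level with other genes of 3 reads and 1 read, such as Mir653 and Mir1933, and stood just below Mir6943 and Mir6985 (2 and 2 reads each).

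**Figure D2:**
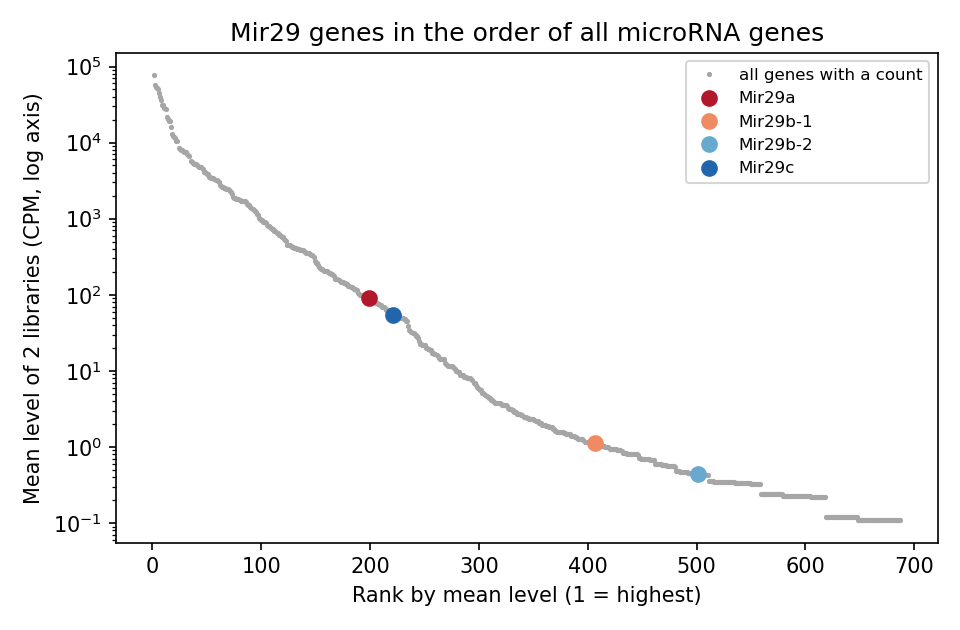
Mean level of the 2 libraries in CPM on a log axis against rank, for all genes with a count (grey), with the Mir29 genes in colour. Mir29a and Mir29c sit at ranks 199 and 221 on the slope, and Mir29b-1 (rank 407) and Mir29b-2 sit in the tail of genes with few reads.

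Each gene's reads in replicate 2 were then set against those in replicate 1 with an exact binomial test, two-sided, at the ratio of the library totals. P-values were adjusted by the Benjamini-Hochberg method over the 407 genes that had 10 counts or more in total. The test sets reads against counting noise, which separate samples exceed in any case, and called 145 genes (35.6%) at an adjusted p under 0.05. With at least a 2-fold difference also required it called 4 genes (0.983%). None of the 3 Mir29 genes tested was called by either rule. The log2 ratio of replicate 2 over replicate 1 was 0.07 for Mir29a (adjusted p = 0.751) and 0.06 for Mir29c (adjusted p = 0.827). The ratio of the levels was 1.05 for Mir29a (counting interval 0.908 to 1.21) and 1.04 for Mir29c (0.867 to 1.26). With DESeq2 size factors both log2 ratios turned to -0.0060 and -0.010, so no direction can be given. Mir29b-1 had a ratio of 0.477 with an interval of 0.0795 to 2.09 (adjusted p = 0.595), and Mir29b-2 had too few reads to be tested.

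Of 48 genes with 300 to 1000 reads in total, Mir29a and Mir29c among them, the absolute log2 ratio had a median of 0.13 and reached 0.56. Of these, 10 genes had a smaller absolute ratio than Mir29a and 9 a smaller one than Mir29c. Mir192, next to Mir29a in rank, differed more, with 76.2 CPM in replicate 1 and 96.8 CPM in replicate 2 (log2 ratio 0.35, adjusted p = 0.00417).

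**Figure D3:**
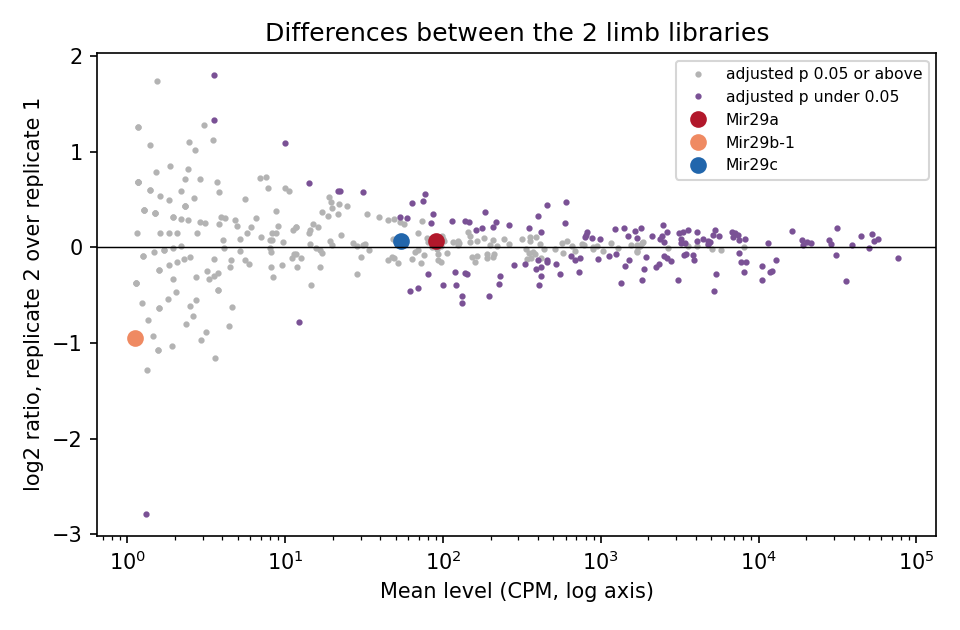
Log2 ratio of replicate 2 over replicate 1 against mean level in CPM (log axis) for the 407 genes tested. Genes called at an adjusted p under 0.05 are purple and the others grey. Mir29a and Mir29c lie close to 0 among genes of like level, and Mir29b-1 lies in the wide scatter of genes with few reads.

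Other microRNAs known for action on matrix genes or fibrosis were set beside the family, from a list of 28 genes. These 28 summed to 174716 CPM in replicate 1 and 183027 CPM in replicate 2, which was 1218 and 1231 times the Mir29 family. Both sums hold only reads with a single alignment, and they set 28 genes against 4. The median level of the 28 was 378 CPM. In both libraries 18 of the 28 exceeded Mir29a and 7 lay below Mir29c. The other 3 lay between or changed order. Over the whole series, 198 of the 333 detected genes ranked above Mir29a by mean level. Whether the list differs from the detected genes in this was not tested. The highest was the cartilage microRNA Mir140, known to lower the aggrecan-cutting protease Adamts5, at 57289 ± 2418 CPM (SD, n = 2). Mir214, a mesenchymal microRNA of the Dnm3os transcript, reached 31163 ± 3130 CPM. Mir26b followed at 28664 ± 500.5 CPM, and Mir30e, of a family known to repress the connective tissue growth factor gene, at 21558 ± 491 CPM. Mir143, known from smooth muscle, reached 8368 ± 612 CPM.

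Of the 26 members of that list with enough reads, 10 were higher and 6 lower in replicate 2 by the same exact binomial test, beside 19.9% and 15.7% of all 407 genes. The split turned with the scaling, to 3 higher and 10 lower with TMM library sizes and to 3 and 11 with DESeq2 size factors, and over all genes from 81 higher and 64 lower to 45 and 86 and to 42 and 96. The exact binomial test calls smaller differences in genes with more reads. The list had a median level of 378 CPM, against 177 CPM for the detected genes. The shares over all genes are therefore not those of genes of like level. The median log2 ratio was 0.04 for the list and 0.04 for all genes tested. Of the 5 highest members, Mir140 and Mir214 were higher and Mir143 was lower in replicate 2 under all 3 scalings. Mir26b changed direction with the scaling and Mir30e did too. The Mir29 genes were called under none of the 3.

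**Figure D4:**
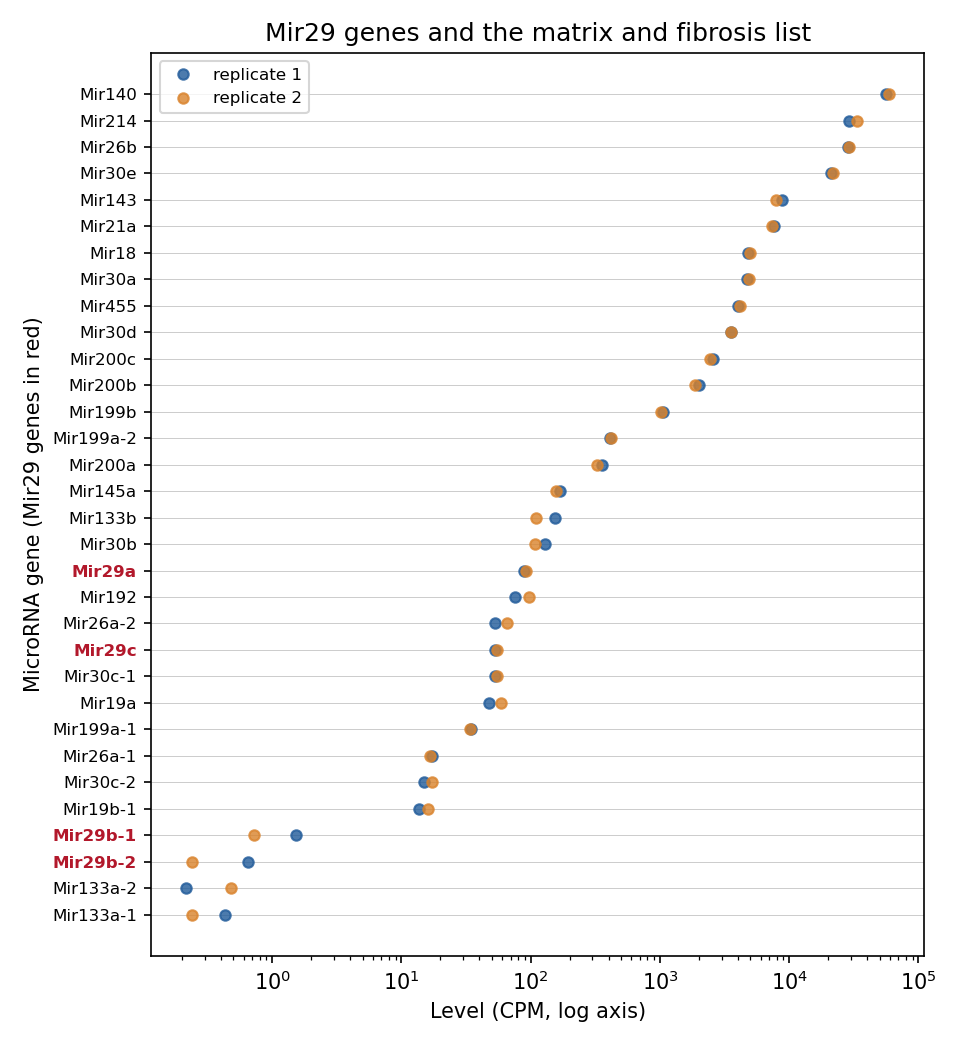
Levels in CPM on a log axis of the 4 Mir29 genes (red labels) and the 28 genes of the matrix and fibrosis list in replicate 1 (blue) and replicate 2 (orange), ordered by mean. Mir29a and Mir29c stand in the lower part, and both Mir29b genes stand near Mir133a-1 and Mir133a-2 at the bottom.

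Copies with a shared strand were compared with Mir29b from a list of 14 pairs, of which 13 had both copies in the tables. The pairs summed to between 0.687 and 3306 CPM with a median of 101 CPM, against 1.57 CPM for the Mir29b pair. Only the muscle pair of Mir133a-1 and Mir133a-2, at 0.687 CPM, summed to less. The highest was the pair of Mir16-1 and Mir16-2, at 2523 and 783 CPM. Thus 12 of the 13 pairs kept more singly aligned reads than Mir29b did. RefSeq's table listed both arms of Mir199a-1 and Mir199a-2 as shared, and that pair stood at 34.1 and 414 CPM. It listed no arms for the Mir133a copies, so their sharing was not checked there. For the other pairs, whether the reads came from shared or unshared arms was not tested.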

How the data were processed

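The analysis used 1 group of 2 samples. The tables deposited by the authors held raw read counts for each gene, unnormalized, in 3 columns without a header. Alignment was to mm10 and counting on GENCODE M4, per the read-me files. The aligner, counter and settings are not given in the sources used here. From the values, the columns were read as both strands together, the own strand and the opposite strand: the last 2 summed to the first for every gene. Own-strand counts were divided by their sum over genes, without the tally rows, which held 31.8% and 32.6% (several alignments), 12.8% and 13.7% (unmapped) and 4.19% and 4.31% (no gene) of the reads in replicates 1 and 2. Names came from GENCODE M21 by identifier (1894 of 1973 matched). All 4 Mir29 genes matched, but the identifiers of Mir29b-1 and Mir29b-2 carry newer versions in M21, so their counted boundaries may differ from those given.

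A prior count of 0.5 was added in log2 ratios. The quasi-likelihood test of edgeR could not be fitted with 1 library a side. The binomial test was tested on simulated data. In the text a gene is called at an adjusted p under 0.05. With a 2-fold change also required, 4 genes (0.983%) were called. Intervals are exact (Clopper-Pearson, 95%). For 3′ untranslated regions, 1 transcript a gene, that with the longest region among GENCODE basic transcripts, was used. Named genes were the 4 Mir29 genes, the 2 genes above and below each in rank, the 5 highest of the matrix and fibrosis list and pairs of the copy list. The genes and lists were chosen with earlier results of these data known. Mir18a and the copies of Mir92a are named Mir18, Mir92-1 and Mir92-2 in GENCODE. The listed pair of Mir24 and the brain marker Mir9-1 were not analysed here. Tools were edgeR 4.0.16 (TMM, exact test) and DESeq2 1.42.0 (size factors) in R 4.3.3, and scipy 1.17.1, pandas 2.3.3, numpy 2.4.6 and matplotlib 3.10.9 in Python 3.11.15.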

Additional observations from a re-analysis of the deposited data

How the results depend on the processing

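Levels depended on the total and not on the scaling between libraries. With reads of several alignments in the total, Mir29a stood at 55.2, Mir29c at 32.8 and the family at 89.0 CPM. With all reads in the total these were 45.6, 27.1 and 73.4 CPM. Without the 10 most abundant genes in the total, Mir29a stood at 172, Mir29b-1 at 2.12, Mir29b-2 at 0.844, Mir29c at 102 and the family at 277 CPM. With either-strand counts Mir29c stood at 52.2 and the family at 141 CPM. The locus ratio was 1.68 without the Mir29b genes. Leaving out 1 library gave 143 to 149 CPM for the family, 88.5 to 92.7 for Mir29a, 52.7 to 55.0 for Mir29c and 1.69 for the locus ratio.

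The library differences of Mir29a and Mir29c changed sign with the scaling. Mir29a turned to -0.0060 with DESeq2 size factors. Mir29c turned to -0.00059 with TMM sizes and to -0.010 with DESeq2 size factors. These scalings lowered all log2 ratios by a fixed amount, a shift of -0.06 and -0.07. Adjusted p over the settings ran from 0.630 to 1 for Mir29a, 0.567 to 1 for Mir29b-1 and 0.733 to 1 for Mir29c. With a coefficient of variation of 0.1 assumed, edgeR's exact test called 0 genes, with 16 at an unadjusted p under 0.05, where the binomial test called 145 and had 166. Mir29b-1 had too few reads for the filter of 100 counts, and Mir29b-2 was tested only without a filter. No paired analysis was possible because there was 1 group.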

Other observations

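Neighbouring microRNAs can come from a common transcript, so the Mir29 loci were set beside other neighbours. Pairs next to each other on a strand within 10 kb, with at least 1 gene at 10 or more counts in both libraries, numbered 137. From reads summed over the libraries with 0.5 added, the higher gene of a pair had a median of 18.2 times the reads of the lower. In 82 pairs both genes had mature strands of their own in RefSeq, and the median was 6.34 times. In 20 pairs the lower gene alone had a strand shared with another gene, and the median was 49.9 times, with quartiles of 2.46 and 147. The Mir29 loci belonged to these 20, at 75.5 times for Mir29a over Mir29b-1 and 105 times for Mir29c over Mir29b-2. Both lay inside the quartiles, which include them. The pairs were sorted by which gene was higher, so these classes depend on the counts themselves. In 2 pairs the higher gene alone had a shared strand, with a median of 704 times. In 5 pairs both genes had one, with a median of 14.0 times. The remaining pairs held a gene without an entry in RefSeq's table. Pairs of 1 cluster are not independent, and no test was made.

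Detection was also set against whether a gene's mature strand is shared. Of 87 genes with a shared mature strand in RefSeq, 43 (49.4%) had at least 10 counts in both libraries, against 261 of 829 genes (31.5%) with strands of their own. Among those detected, the median level was 69.5 CPM with a shared strand and 231 CPM without. Mir29b-1 and Mir29b-2 were among those not detected by this rule, and Mir29a and Mir29c among the 261 that were. Genes without an entry in RefSeq's table (1057) were left out of this comparison, and 29 of them (2.74%) were detected. These classes too rest on the strands that RefSeq lists. How else the classes of genes differ was not tested.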
